A study of Homo sapiens with 31 samples.

Results

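The genes described here form the core of the p53 feedback loop: MDM2, MDM4, PPM1D, CCNG1 and TP53INP1. They were taken by gene symbol from the normalized expression table, where each symbol named 1 row, so 5 of 74834 rows are described across 8 treatment groups. All 5 passed the filter on low values (a mean normalized read count of at least 10 over all libraries), as did 16259 rows in all. Poly(A) RNA was sequenced from H460 cells, an established human line of non-small cell lung cancer, after 6 h of treatment. Control cells were untreated, with no vehicle named (n = 4). B87 cells received the complex I inhibitor BAY87-2243 at 1 µM (n = 4), and DMKG cells received dimethyl α-ketoglutarate, a cell-permeable ester of α-ketoglutarate, at 5 mM (n = 4). B87+DMKG cells received both agents at these doses (n = 4). Nutlin-3 cells received 30 µM Nutlin-3 (n = 3) and Rita cells 50 µM Rita (n = 4). In the B87+DMKG+Nutlin-3 group (n = 4) Nutlin-3 was added to the combination, and in the B87+DMKG+Rita group (n = 4) Rita was, each agent at the dose just given. All groups are the same cell line, each sample pooled 2 wells, and separate experiments for the replicates are not stated, so the p-values reflect only how much these samples varied, which may be technical variation.

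p53 is a transcription factor that is kept scarce in unstressed cells by MDM2, a ubiquitin ligase that marks it for degradation, and by MDM4, a relative of MDM2 that masks its activation domain. Active p53 in turn switches on MDM2, PPM1D, CCNG1 and TP53INP1, so that the pathway raises its own brakes together with its effectors. Nutlin-3 occupies the pocket of MDM2 that holds p53, and Rita is described as a small molecule that binds p53 and blocks its contact with MDM2.

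Values are read counts that the authors normalized per library, and 33441414 to 82493612 reads were recovered per library (median 63089433). A log2 fold change compares 2 groups' means of log2(normalized read count + 1), and ± gives limma's standard error. The verbs rose and fell are kept for genes with a limma p under 0.05 after Benjamini-Hochberg adjustment over the 16259 rows. Every change is measured against the other transcripts. With library totals made equal, the all-row median log2 fold change shifted by -0.254 (B87+DMKG+Rita against Control) to 0.119 (the combination beyond the sum of its parts), and quantile normalization by up to 0.157 (the Nutlin-3 effect with minus without B87+DMKG). In a bulk sample fewer cells with a transcript and less transcript per cell cannot be told apart. The epithelial keratins were abundant in every library (KRT8 at 65124 or more), whereas EPCAM was low (27.99 to 85.0) and CDH1 lay at 0 to 8.21. The 5 matched fibroblast markers summed to 745 to 1391 per library, the 7 leukocyte markers to 81.7 to 299 and the 5 endothelial markers to 0 to 66.0. No marker was at 0 in every library, and PTPRC, the defining leukocyte marker, lay at 0 to 7.80. DMKG libraries 1 and 2 stood apart from libraries 3 and 4. Where leaving out a pair changed a call, a direction or the size by over 1.5 times for the 5 genes, the value for 1 or both pairs is given.

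MDM2 and MDM4 are the loop's direct inhibitors of p53. The MDM2 row lies on chromosome 12 (hg19 positions 69195239 to 69239324). The MDM4 row lies on chromosome 1 (204485506 to 204685552), a span that also contains the gene LRRN2. MDM2 is transcribed from an upstream promoter and from an internal promoter in the first intron, the latter known as the p53-responsive one. Promoter sequences of MDM2 and PPM1D are shown because these genes moved most alike across the libraries. They come from RefSeq on GRCh38.p14, as the 150 bases before a transcript start on the + strand, and were read by gene symbol. The MDM2 internal promoter spans chr12:68808867-68809016, and its capitals mark the best matches to the p53 response element, a pair of adjacent decamers. The MDM2 upstream promoter spans chr12:68808022-68808171. The PPM1D promoter spans chr17:60600043-60600192, and its capitals mark a cyclic AMP response element octamer.
MDM2 internal promoter: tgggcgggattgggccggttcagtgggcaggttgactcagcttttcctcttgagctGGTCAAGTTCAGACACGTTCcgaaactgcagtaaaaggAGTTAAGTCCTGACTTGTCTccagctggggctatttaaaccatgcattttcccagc
MDM2 upstream promoter: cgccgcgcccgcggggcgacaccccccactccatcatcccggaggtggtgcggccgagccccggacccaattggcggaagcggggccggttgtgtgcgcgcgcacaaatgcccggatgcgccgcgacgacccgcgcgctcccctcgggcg
PPM1D promoter: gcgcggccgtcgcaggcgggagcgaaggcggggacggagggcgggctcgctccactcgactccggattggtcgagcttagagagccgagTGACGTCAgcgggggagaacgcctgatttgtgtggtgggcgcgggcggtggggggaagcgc

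The p53 response element consensus was searched on both strands in the RefSeq window around each start. In the MDM2 internal window, the copy from 94 to 75 bases before the start differed from the consensus by 2 letters and the copy from 56 to 37 bases before it by 3 letters. A match with at most 2 letters off was found in 0.649% of 35116 such windows, and one with at most 3 letters off in 5.2%. The best matches in the other windows were 5 letters off for the MDM2 upstream start, 5 for MDM4, 4 for PPM1D and 6 for CCNG1. The octamer TGACGTCA lay 61 to 54 bases before the PPM1D start and occurred in 1.85% of windows. These matches describe letters in a window and not binding. The TP53INP1 promoter was not used here.

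Nutlin-3 alone raised both direct inhibitors, and MDM2 by far more than MDM4. MDM2 was 6691, 6062, 6538 and 6808 in the Control libraries and 61919, 76151 and 79678 in the Nutlin-3 libraries. The groups lay far apart, at means of 6525 ± 328 (SD, n = 4) and 72583 ± 9402 (SD, n = 3), 11.12 times the Control mean. The log2 fold change was 3.47 ± 0.09 (limma adjusted p = 5.42e-23). MDM4 was 498, 467, 420.1 and 527 in Control and 630.1, 820.2 and 673 in Nutlin-3, again without overlap. It rose by 0.56 ± 0.14 (limma adjusted p = 0.00149). Of the 5 genes, 4 rose with Nutlin-3 and 0 fell, where 39.1% of all rows changed.

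The phosphatase and the effectors differed among themselves under Nutlin-3. PPM1D, which encodes the phosphatase WIP1 that removes activating phosphates from p53 and its kinases (chromosome 17, hg19 positions 58677544 to 58743638), was 814, 843, 878 and 865 in Control and 2062, 2294 and 2086 in Nutlin-3. It rose by 1.33 ± 0.09 (limma adjusted p = 1.01e-12), with every Nutlin-3 library above every Control library. TP53INP1, which encodes a nuclear protein that promotes autophagy and p53-dependent death (chromosome 8, 95938201 to 95961615), was 134, 97.0, 116 and 113 in Control and 1497, 1620.4 and 1509.8 in Nutlin-3. Its 13.44 times higher mean was the highest of the 5 genes relative to Control in any group (3.75 ± 0.19, limma adjusted p = 6.80e-16). CCNG1, which encodes cyclin G1, a partner of phosphatase 2A that acts on MDM2 (chromosome 5, 162864575 to 162875203), was 3139, 3350.2, 3483 and 3364 in Control and 3165, 2379.7 and 2338 in Nutlin-3. It did not pass the test (-0.36 ± 0.16, limma adjusted p = 0.073), although it is a textbook p53 target. Without Nutlin-3 replicate 1, the highest of the 3, its value was -0.50 with an adjusted p of 0.0206, and it was also called with equal library totals (-0.49) and with only these groups in the fit (-0.36).

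Rita alone raised 3 of these genes, each by less than Nutlin-3, and MDM4 did not rise. MDM2 was 11500.3, 9969, 11178 and 11749.5 in the Rita libraries, all above Control, a rise of 0.76 ± 0.09 (limma adjusted p = 1.24e-08). PPM1D was 1207, 1207, 1189 and 1250.5 and rose by 0.51 ± 0.08 (adjusted p = 7.18e-06). TP53INP1 was 318, 357, 341 and 323 and rose by 1.54 ± 0.17 (adjusted p = 1.07e-08). These 3 genes were higher in every Rita library than in any Control library. MDM4 was 378, 381, 395 and 426, overlapping Control in 1 library, and did not pass the test (-0.27 ± 0.13, adjusted p = 0.0736). It passed without Control replicate 3 (-0.33, adjusted p = 0.0456), with equal library totals (-0.45) and with only these groups in the fit (-0.27). CCNG1 was 3676, 3665, 3329 and 1885, with replicate 4 far below the others, and did not pass (-0.14 ± 0.15, adjusted p = 0.456). Without replicate 4 its direction turned (0.09, adjusted p = 0.525). Thus 3 of the 5 genes rose with Rita and 0 fell, where 52.1% of all rows changed.

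**Figure D1:**
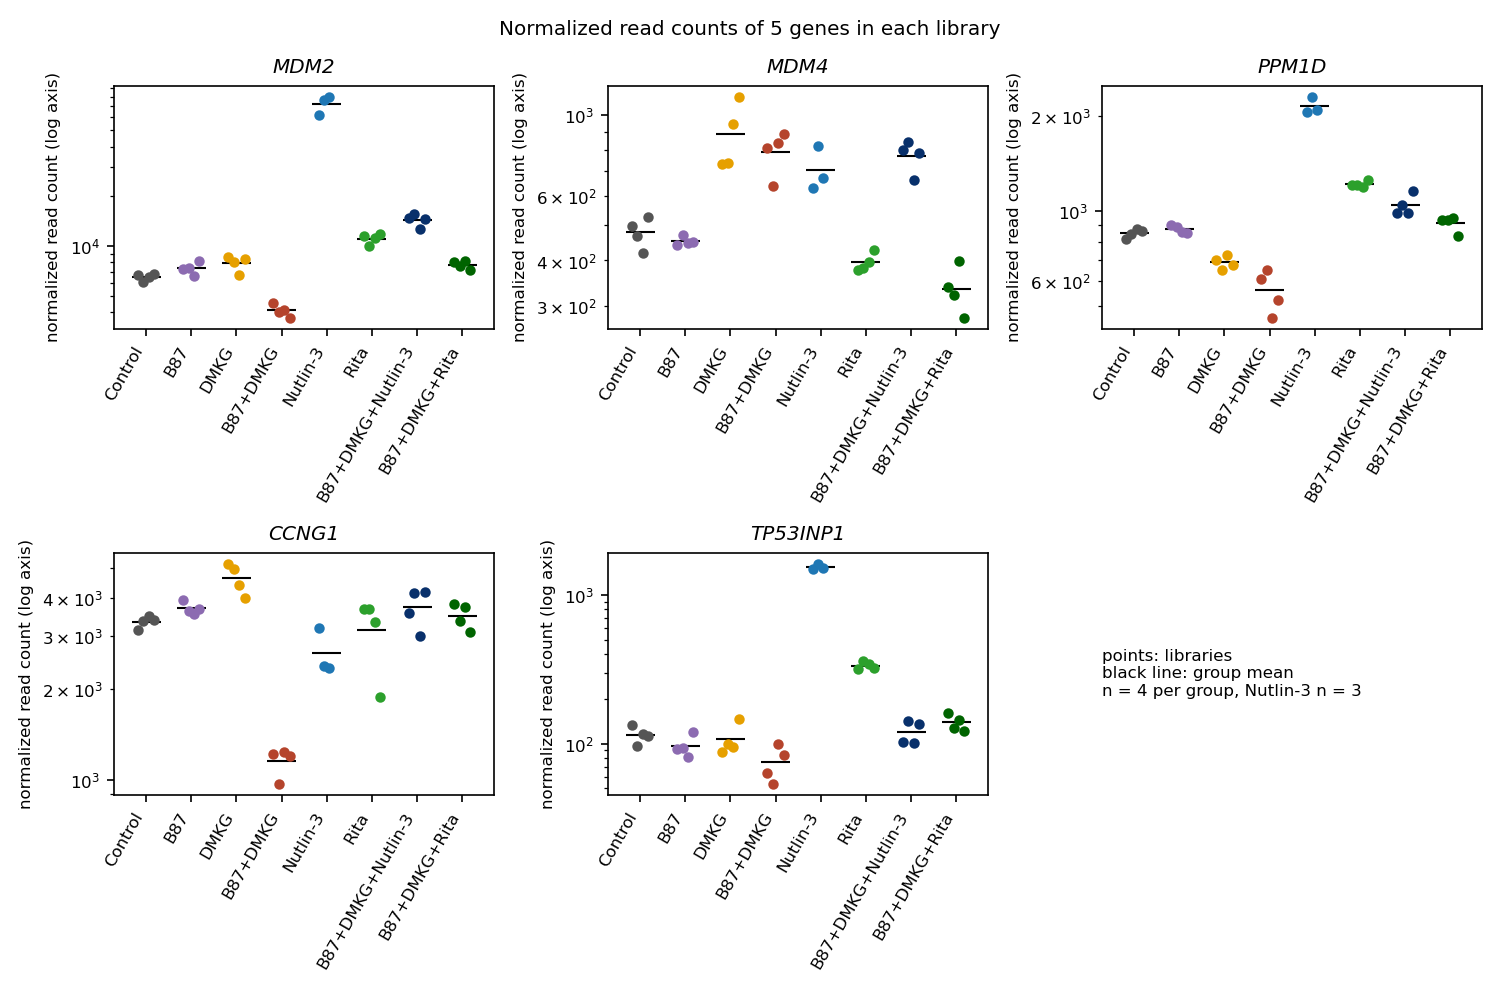
Normalized read count of each gene in each library (log axis) for the 8 treatment groups, with points for libraries and a black line for the group mean (n = 4, Nutlin-3 n = 3). MDM2 and TP53INP1 reach 61919 to 79678 and 1497 to 1620.4 under Nutlin-3, and CCNG1 is lowest under B87+DMKG at 968 to 1233.

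Set against each other, the inhibitor groups differed in MDM2, MDM4, PPM1D and TP53INP1, all higher with Nutlin-3, at doses that were not matched (30 µM and 50 µM). The difference was 2.70 ± 0.09 for MDM2, 0.83 ± 0.14 for MDM4, 0.82 ± 0.09 for PPM1D and 2.20 ± 0.19 for TP53INP1. CCNG1 did not pass (-0.22 ± 0.16, limma adjusted p = 0.249), but did without Rita replicate 4 (-0.45, adjusted p = 0.00293). These were 4 of 5 genes, where 51.2% of all rows differed.

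The other textbook p53 targets, a list of 31 genes of which 30 were tested, rose in larger number with Nutlin-3. With Nutlin-3, 28 rose and 0 fell, where 39.1% of all rows changed, at a median of 1.43 against -0.01 over all rows tested. BTG2, an antiproliferative gene, rose by 4.37 ± 0.11, and CDKN1A, which encodes the cell cycle inhibitor p21, by 4.25 ± 0.11. GDF15, a secreted stress cytokine, rose by 3.84 ± 0.20. With Rita, 22 rose and 1 fell, where 52.1% of all rows changed, at a median of 0.61 against 0.03 over all rows. PMAIP1, which encodes the death protein NOXA, differed the other way from MDM2 between the inhibitors, at 0.95 ± 0.16 with Nutlin-3 and 2.56 ± 0.15 with Rita (difference -1.62 ± 0.16). Of the list, 24 were higher and 2 lower with Nutlin-3 than with Rita, where 51.2% of all rows differed.

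B87 alone changed none of the 5 genes, and DMKG alone changed 4 of them, in both directions. With B87, MDM2 was 7278, 7419, 6618 and 8166, and its difference from Control was 0.17 ± 0.09 (95% interval -0.0034 to 0.35, limma adjusted p = 0.924). MDM4 was 441, 469.9, 447 and 450.4 (-0.07 ± 0.13) and PPM1D 899.7, 890.1, 859 and 850.0 (0.04 ± 0.08). Both overlapped Control. CCNG1 was 3937, 3604, 3528 and 3680.0, all above the Control libraries (0.14 ± 0.15), and TP53INP1 was 92.2, 94.1, 81.3 and 119.6, overlapping Control (-0.25 ± 0.17). So 0 of 5 genes changed, where 0.0431% of all rows did (7 by limma, 30 by DESeq2, 8 by edgeR, and 904 at an unadjusted p under 0.05).

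DMKG raised MDM4, MDM2 and CCNG1 and lowered PPM1D. MDM4 was 735, 739, 944 and 1118 in the DMKG libraries, all above Control, a rise of 0.87 ± 0.13 (limma adjusted p = 1.91e-06). The rise was 1.11 without libraries 1 and 2 and 0.63 without libraries 3 and 4, so these values differ by more than 1.5 times. MDM2 was 8560.3, 8033, 6726 and 8311, overlapping Control in 1 library, and rose by 0.27 ± 0.09 (adjusted p = 0.0118). It did not pass without libraries 1 and 2 (0.20, adjusted p = 0.136) or with equal library totals (0.16). CCNG1 was 5185, 4960.0, 4413 and 4002 and rose by 0.47 ± 0.15 (adjusted p = 0.0101). Its call was also lost without libraries 1 and 2 (0.34, adjusted p = 0.137) and with the same total (0.36). PPM1D was 702, 651, 725 and 674, all below Control, and fell by 0.31 ± 0.08 (adjusted p = 0.00414). TP53INP1 was 87.7, 100.1, 94.4 and 147 and did not pass (-0.12 ± 0.17), with 0.05 without libraries 1 and 2 and -0.28 without 3 and 4. In all, 4 of 5 genes changed, where 41.4% of all rows did.

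The combination of B87 with DMKG lowered 4 of the 5 genes and raised MDM4. CCNG1 fell most, to 1218, 968, 1233 and 1202, a mean of 1155 ± 126 (SD, n = 4) or 0.347 times Control, and a fall of 1.53 ± 0.15 on the log2 scale (limma adjusted p = 2.88e-10). MDM2 was 4544, 4004, 4092 and 3683, below every Control library, and fell by 0.68 ± 0.09 (adjusted p = 7.47e-08). PPM1D was 609.7, 652, 459 and 522, also below Control throughout, and fell by 0.61 ± 0.08 (adjusted p = 2.93e-07). TP53INP1 was 63.8, 53.3, 98.9 and 83.8 and fell by 0.64 ± 0.17 (adjusted p = 0.00215), although replicate 3 lay above the lowest Control library. MDM4 was 811, 639, 835 and 885, above every Control library, and rose by 0.72 ± 0.13 (adjusted p = 1.3e-05). All 5 genes changed, where 61% of all rows did.

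These levels departed from the sum of the B87 and DMKG effects for 3 genes. The combination minus the sum was -2.15 ± 0.21 for CCNG1 (limma adjusted p = 1.13e-09), -1.13 ± 0.12 for MDM2 (adjusted p = 1.11e-08) and -0.35 ± 0.12 for PPM1D (adjusted p = 0.0165). For CCNG1 and MDM2 the combination was below Control, while neither agent alone lowered them. The PPM1D call was lost without B87+DMKG replicate 3 (-0.26, adjusted p = 0.0559), with equal library totals (-0.23) and with only these groups in the fit (-0.35). MDM4 differed from the sum by -0.07 ± 0.18 (95% interval -0.44 to 0.30) and TP53INP1 by -0.27 ± 0.25 (-0.77 to 0.23), neither past the test. Without DMKG libraries 1 and 2 these values were -0.31 and -0.44, and without libraries 3 and 4 they were 0.17 and -0.11, still not past it. Quantile normalization brought TP53INP1 past it (-0.75, adjusted p = 0.00989). Thus 3 of 5 genes departed from the sum, where 48.8% of all rows did.

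Of the 30 other p53 targets tested, 15 fell and 3 rose with B87+DMKG, at a median of -0.31 against 0.00 over all rows. Together these 18 are a share near the 61% of all rows that changed. The largest falls were in SESN2, a sestrin that restrains growth signalling under stress (-2.18 ± 0.20), and in SPATA18, a mitochondrial quality control gene (-1.78 ± 0.29). PMAIP1 fell by 1.58 ± 0.15. CDKN1A rose by 0.31 ± 0.10. With DMKG alone, 6 rose and 9 fell, where 41.4% of all rows changed. The counts were 7 and 8 without DMKG libraries 1 and 2, and 5 and 8 without libraries 3 and 4. BBC3, which encodes the death protein PUMA, rose by 1.38 ± 0.18 with DMKG, by 1.74 without libraries 1 and 2 and by 1.02 without libraries 3 and 4. With B87 alone, 0 of 30 changed, where 0.0431% of all rows did.

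Adding Nutlin-3 to B87+DMKG raised 4 genes above the combination, and MDM2 and CCNG1 most. MDM2 was 14808, 15651, 12768 and 14618 with the triple treatment, all above the B87+DMKG libraries, a rise of 1.83 ± 0.09 (limma adjusted p = 8.19e-17). CCNG1 was 3556, 4153, 2987 and 4164 and rose by 1.68 ± 0.15 (adjusted p = 6.27e-11), which placed its libraries on both sides of the Control range. PPM1D was 988, 1045, 987 and 1158 and rose by 0.91 ± 0.08 (adjusted p = 2.52e-10). TP53INP1 was 102.9, 142, 101.6 and 134.5 and rose by 0.70 ± 0.17 (adjusted p = 9.77e-04). All 4 genes were above B87+DMKG in every library. MDM4 was 801, 844, 662 and 784, within the B87+DMKG range, with a difference of -0.03 ± 0.13 (95% interval -0.29 to 0.23). In this step 4 of 5 genes changed, where 58.9% of all rows did.

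Adding Rita raised the same 4 genes and lowered MDM4. CCNG1 was 3799, 3362, 3726 and 3070.5, a rise of 1.60 ± 0.15 (limma adjusted p = 7.85e-11). MDM2 was 8017, 7556, 8162 and 7154 and rose by 0.92 ± 0.09 (adjusted p = 1.32e-10). PPM1D was 934, 936, 951 and 831 and rose by 0.71 ± 0.08 (adjusted p = 1.3e-08). No library of either group crossed the other in these genes. TP53INP1 was 160.4, 127, 145 and 122 and rose by 0.91 ± 0.17 (adjusted p = 3.28e-05). MDM4 was 338, 323, 398 and 279, below every B87+DMKG library, and fell by 1.24 ± 0.13 (adjusted p = 7.04e-10). All 5 genes changed, where 67.3% of all rows did.

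Markers of cell types also moved in these steps. The summed leukocyte markers were 212 to 266 in Control, 81.7 to 132 with B87+DMKG, 222 to 298 with Nutlin-3 added and 181 to 299 with Rita added. CD14 was the 1 of 7 that passed the filter, and it was called in all 3 steps (-1.69, 1.85 and 1.59). The epithelial sums were 245626 to 279907 in Control and 205459 to 313419 with B87+DMKG. They were 346823 to 416565 with Nutlin-3 added and 345486 to 393491 with Rita added. In both addition steps 4 of 4 tested epithelial markers rose, where 58.9% (Nutlin-3 added) and 67.3% (Rita added) of all rows changed. The fibroblast sums were 945 to 1024, 755 to 962, 1085 to 1245 and 1316 to 1391 in the same order. The endothelial sums were 9.55 to 21.4, 32 to 66.0, 8.57 to 18.1 and 5.66 to 21.0. KDR was the 1 of 5 endothelial markers that passed the filter, and it was called in all 3 steps (1.95, -1.83 and -2.41). The part of these markers in the results was not tested.

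Against Control, MDM2 and MDM4 differed with both triple treatments, MDM4 in opposite directions. With Nutlin-3 added, MDM2 stayed 1.15 ± 0.09 above Control (limma adjusted p = 1.09e-12), MDM4 0.69 ± 0.13 above (adjusted p = 2.6e-05) and PPM1D 0.29 ± 0.08 above (adjusted p = 0.00364). The PPM1D call was lost with equal library totals (0.13). CCNG1 (0.14 ± 0.15, 95% interval -0.15 to 0.44) and TP53INP1 (0.06 ± 0.17, -0.29 to 0.41) did not pass, so 3 of 5 genes differed from Control, where 58% of all rows did. With Rita added, MDM4 stood at -0.52 ± 0.13 against Control (adjusted p = 7.54e-04). MDM2 was 0.24 ± 0.09 above (adjusted p = 0.0166). That MDM2 call was lost when Control replicate 2 (0.21, adjusted p = 0.0574) or B87+DMKG+Rita replicate 3 (0.22, adjusted p = 0.0522) was left out and with quantile normalization (0.09), and its direction turned with equal library totals (-0.01). PPM1D (0.10 ± 0.08), CCNG1 (0.06 ± 0.15) and TP53INP1 (0.27 ± 0.17) did not pass, so 2 of 5 genes differed, where 60.1% of all rows did. Quantile normalization called PPM1D (0.32) and TP53INP1 (0.39).

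Between the triple treatments, MDM4 and MDM2 differed. MDM4 was higher with Nutlin-3 than with Rita by 1.21 ± 0.13 (limma adjusted p = 1.48e-09) and MDM2 by 0.90 ± 0.09 (adjusted p = 2.44e-10). PPM1D differed by 0.19 ± 0.08 (adjusted p = 0.0602), a value that was called with equal library totals (0.29), with only these groups in the fit (0.19) and by DESeq2 (0.19). CCNG1 (0.08 ± 0.15) and TP53INP1 (-0.21 ± 0.17) did not pass. These were 2 of 5 genes, where 48.3% of all rows differed.

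The inhibitor effects were next compared with and without B87+DMKG. TP53INP1 lost most of its Nutlin-3 response: its mean was 1542 ± 67.9 (SD, n = 3) with Nutlin-3 alone and 120.3 ± 21.1 (SD, n = 4) with the triple treatment, a difference of -3.69 ± 0.19 (limma adjusted p = 1.04e-16). The same difference was -2.32 ± 0.09 for MDM2, or 5.00-fold lower, and -1.04 ± 0.09 for PPM1D. It was 0.50 ± 0.16 for CCNG1. MDM4 differed by 0.13 ± 0.14 (95% interval -0.15 to 0.41), a value called under quantile normalization only (0.31). Thus 4 of 5 genes differed between these groups, where 59.7% of all rows did. For Rita, the difference between the triple treatment and the inhibitor alone was -1.27 ± 0.17 for TP53INP1, -0.52 ± 0.09 for MDM2 and -0.41 ± 0.08 for PPM1D. MDM4 (-0.25 ± 0.13) and CCNG1 (0.20 ± 0.15, or -0.03 without Rita replicate 4) did not pass, so 3 of 5 genes differed, where 23.4% of all rows did.

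The interaction term sets the effect of an inhibitor added to B87+DMKG against its effect on untreated cells. The Nutlin-3 effect with minus without B87+DMKG was -3.05 ± 0.26 for TP53INP1 (limma adjusted p = 6.17e-11), -1.64 ± 0.13 for MDM2 (adjusted p = 1.41e-11), -0.59 ± 0.19 for MDM4 (adjusted p = 0.00783) and -0.43 ± 0.12 for PPM1D (adjusted p = 0.00419). It was 2.03 ± 0.21 for CCNG1 (adjusted p = 4.62e-09). All 5 genes had an interaction, where 56.9% of all rows did. For Rita, the same difference was 1.73 ± 0.21 for CCNG1 (adjusted p = 7.09e-08) and -0.97 ± 0.18 for MDM4 (adjusted p = 4.93e-05). The MDM2 effect of Rita differed by 0.16 ± 0.12 between the settings and did not pass (95% interval -0.09 to 0.41). PPM1D differed by 0.20 ± 0.12 (-0.04 to 0.44), and passed only without B87+DMKG replicate 2 (0.28, adjusted p = 0.0462).

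For TP53INP1 the Rita effect with minus without B87+DMKG was -0.63 ± 0.25 (limma adjusted p = 0.0331). That call was not stable. It was lost without Control replicate 2 (-0.56), B87+DMKG replicate 3 (-0.49) or 4 (-0.57), Rita replicate 2 (-0.60) or 3 (-0.62), or B87+DMKG+Rita replicate 2 (-0.60) or 4 (-0.58), at adjusted p up to 0.0949. It was also lost with no filter on low values (adjusted p = 0.0604) and under quantile normalization (-0.17). Over the 5 genes 3 had a Rita interaction, where 48.6% of all rows did.

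**Figure D2:**
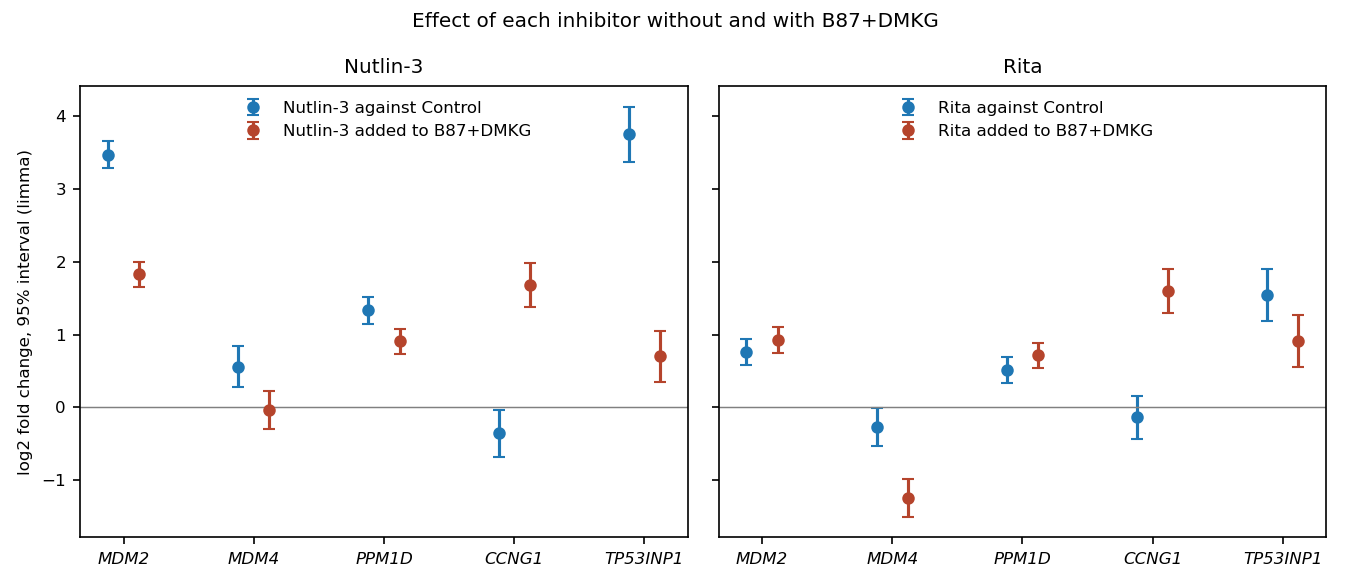
Log2 fold change with its 95% interval from limma for Nutlin-3 (left) and Rita (right), against Control (blue) and when added to B87+DMKG (red). MDM2 drops from 3.47 to 1.83 and TP53INP1 from 3.75 to 0.70 for Nutlin-3, CCNG1 moves upward with both inhibitors, and MDM2 is at 0.76 and 0.92 for Rita.

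The order of group levels differed by gene. MDM2 was lowest with B87+DMKG, then Control, B87, B87+DMKG+Rita and DMKG followed without a difference between neighbours, and Rita, B87+DMKG+Nutlin-3 and Nutlin-3 each lay above the previous group. MDM4 split into a low set (B87+DMKG+Rita, Rita, B87, Control) and a high set (Nutlin-3, B87+DMKG+Nutlin-3, B87+DMKG, DMKG), and its neighbours differed at the border alone. PPM1D rose from B87+DMKG to DMKG to Control, stayed without a difference between neighbours through B87, B87+DMKG+Rita and B87+DMKG+Nutlin-3, and rose again to Rita and Nutlin-3. CCNG1 had B87+DMKG below all others, and the remaining 7 groups, from Nutlin-3 up to DMKG, had no neighbours that differed. TP53INP1 had Rita and Nutlin-3 above the rest, and the other 6 groups had no neighbours that differed. The PPM1D step from B87+DMKG+Nutlin-3 to Rita (adjusted p = 0.029) was lost under quantile normalization and without B87+DMKG+Nutlin-3 replicate 1 or 3 or Rita replicate 4 (-0.13 to -0.20), and the step from B87+DMKG to DMKG with only these groups in the fit. The CCNG1 step from B87 to DMKG was called with only these groups in the fit (adjusted p = 0.0122), by DESeq2 (adjusted p = 0.0499) and without DMKG replicate 4 (adjusted p = 0.0483). For TP53INP1, B87+DMKG fell below B87 under several alternatives, by 0.85 with quantile normalization. For MDM4, B87+DMKG was called below DMKG with DMKG libraries 1 and 2 left out (-0.38, limma adjusted p = 0.0208). A neighbour pair that misses the threshold is not shown to be equal. Groups further apart can differ within a run of such neighbours. In the low set of MDM4, B87+DMKG+Rita was below Control (-0.52 ± 0.13) and below B87 (-0.45 ± 0.13). TP53INP1 with B87+DMKG, and MDM2 and CCNG1 with DMKG, also differed from Control, as given above.

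MDM2 and MDM4 form a complex, and their reads can be set against each other within a library, which is free of the scaling between libraries. The ratio depends on the lengths of both transcripts and is comparable only between groups. The MDM4 row also contains LRRN2, which changed between groups, and its part in the ratio was not tested. There were 13.7 ± 1.25 MDM2 reads per MDM4 read in Control, 16.3 ± 1.41 in B87, 9.27 ± 2.32 in DMKG and 5.23 ± 0.908 in B87+DMKG (SD, n = 4). Nutlin-3 had the highest ratio, 103 ± 13.5 (SD, n = 3), and Rita had 28.1 ± 1.79. The triple treatments came to 18.7 ± 0.366 with Nutlin-3 and 23.3 ± 2.11 with Rita (SD, n = 4). Every B87+DMKG library (4.16 to 6.27) was below every Control library (12.9 to 15.6), and every library of both triple treatments (18.5 to 25.6) was above it. No test was made of this ratio.

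**Figure D3:**
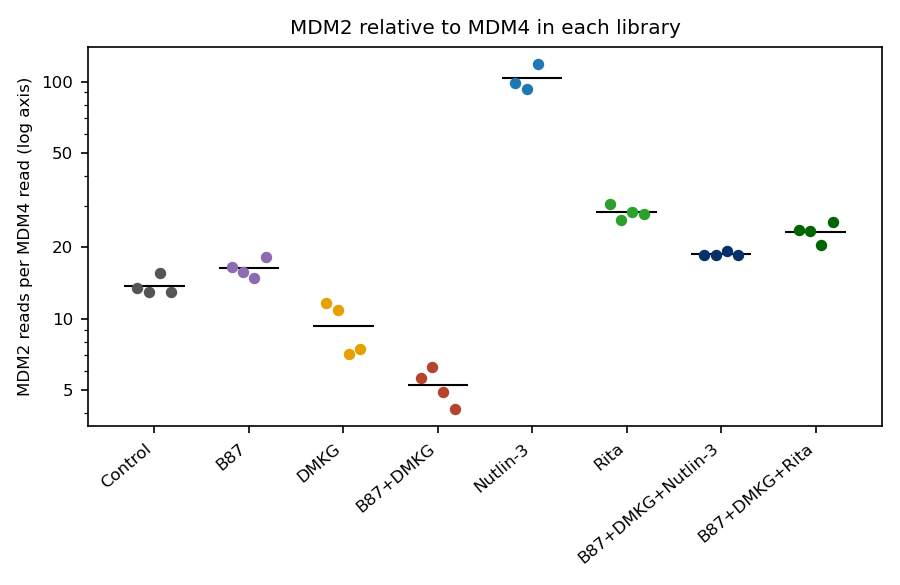
MDM2 reads per MDM4 read in each library (log axis) by treatment group, with the group mean as a black line (n = 4, Nutlin-3 n = 3). The B87+DMKG libraries lie at 4.16 to 6.27, below Control, and the Nutlin-3 libraries at 92.8 to 118.

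Of the 5 rows, 3 overlap other rows of the table, and 2 of them overlap a row with a mean of at least 10, while whether strand was used in counting is not stated. The MDM4 row spans 200 kb and contains LRRN2, whose means ran from 153 (B87+DMKG+Rita) to 532 (DMKG). LRRN2 was lower with Nutlin-3 (205 ± 14.1, SD, n = 3) than in Control (449 ± 37.4, SD, n = 4), whereas MDM4 was higher. With Rita alone LRRN2 fell by 0.97 ± 0.16, where MDM4 did not pass the test (-0.27 ± 0.13). LRRN2 was lowest with B87+DMKG+Rita, where MDM4 was lowest as well. LRRN2 fell by 1.51 ± 0.16 when Rita was added to B87+DMKG, as MDM4 fell. It was 1.08 ± 0.16 higher with the Nutlin-3 than with the Rita triple treatment, again like MDM4. With B87+DMKG, LRRN2 stood at -0.05 ± 0.16 against Control, where MDM4 rose. CCNG1 overlaps NUDCD2, whose means ran from 984 (B87+DMKG) to 1325 (B87+DMKG+Nutlin-3), a narrower range than that of CCNG1 (1155 to 4640.1). The part of reads from these neighbours was not tested. TP53INP1 rests on the fewest reads, 40 to 2021 per library.

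Other regulators of the pathway were examined beside the loop. CDKN2A, which encodes the MDM2 inhibitor ARF, was at 0 in 30 of 31 libraries.

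USP7, which encodes the deubiquitinase that stabilizes MDM2 and p53, followed a course of its own. It was 19211, 17656, 19186 and 18437 in Control, 7743, 7884, 6294 and 5602 with B87+DMKG, and 2009, 2025, 1735 and 1851 with B87+DMKG+Nutlin-3. Each step down was without overlap, at -1.45 ± 0.10 against Control for the combination (limma adjusted p = 5.03e-13) and -1.84 ± 0.10 when Nutlin-3 was added (adjusted p = 2.37e-15). Nutlin-3 alone left it at 16965, 22119.6 and 23369 (0.15 ± 0.11), so the Nutlin-3 effect had an interaction of -1.99 ± 0.15 (adjusted p = 8.00e-12). Rita added to the combination raised it by 0.69 ± 0.10, to 11076, 11134, 10450.1 and 11169.8. MDM2 and USP7 thus moved in opposite directions when Nutlin-3 was added to B87+DMKG, and in the same direction when Rita was.

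Of 26 p53 regulators 24 were tested, and with B87+DMKG 6 rose and 10 fell, at a median of -0.14 against 0.00 over all rows. That is a share near the 61% of all rows. The largest falls were in the ubiquitin ligases RCHY1 (-2.63 ± 0.16) and RFWD2 (-2.49 ± 0.13), also known as COP1, which mark p53 for degradation like MDM2. SIRT1, a deacetylase of p53, fell by 1.59 ± 0.14. When Rita was added, 11 rose and 9 fell (67.3% of all rows), and RCHY1 (2.34 ± 0.16) and SIRT1 (2.22 ± 0.14) rose most. When Nutlin-3 was added, 6 rose and 6 fell (58.9% of all rows), among them RCHY1 (1.24 ± 0.16). With Nutlin-3 alone, 9 rose and 8 fell (39.1% of all rows), and with Rita alone, 7 rose and 9 fell (52.1%). DMKG alone raised 4 and lowered 5 (41.4%), and B87 alone changed 0 of 24 (0.0431%). With either pair of DMKG libraries left out, DMKG raised 4 and lowered 4.

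Of 8 relatives of the 5 genes by family, all tested, 1 rose and 4 fell with B87+DMKG, at a median of -0.04 against 0.00 over all rows and a share near the 61% of all rows that changed. CCNG2, which encodes cyclin G2, had a mean of 101 ± 4.50 in Control and 904 ± 387 with DMKG (SD, n = 4 each), a rise of 3.04 ± 0.23 (limma adjusted p = 8.78e-12), and fell by 1.07 ± 0.23 with the combination. Its DMKG libraries were 580.4, 558.8, 1217.6 and 1259.2, so libraries 3 and 4 were the higher ones, whereas for CCNG1 libraries 1 and 2 were. The CCNG2 rise was 3.60 without libraries 1 and 2 and 2.48 without libraries 3 and 4. With Nutlin-3, 1 relative rose and 1 fell, where 39.1% of all rows changed. They were PPM1A (0.30 ± 0.10) and PPM1F (-0.59 ± 0.13), phosphatases of the PPM family like PPM1D. TP53INP2, the autophagy-linked relative of TP53INP1, was 0.36 ± 0.30 with Nutlin-3 and did not pass, and rose by 0.98 ± 0.28 with Rita.

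Among the p53 targets the Nutlin-3 response was changed by B87+DMKG in both directions. Of 30 tested, 16 had a smaller and 6 a larger effect, where 56.9% of all rows had an interaction, at a median of -0.55 against -0.06 over all rows. FAS, which encodes a death receptor, rose by 2.56 ± 0.15 with Nutlin-3 alone and stood at 0.02 ± 0.13 when Nutlin-3 was added to the combination. POLH, a translesion polymerase gene, rose by 1.59 ± 0.10 and fell by 0.23 ± 0.09 in the same settings. SESN2 rose by 1.44 ± 0.22 and by 3.23 ± 0.20, and GDF15 by 3.84 ± 0.20 and 5.00 ± 0.18. BBC3 rose by 2.58 ± 0.20 and by 2.56 ± 0.18, and the difference of -0.02 ± 0.27 did not pass. In total 22 rose and 1 fell when Nutlin-3 was added (58.9% of all rows changed), and against Control 15 were higher and 5 lower with that triple treatment (58%).

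For Rita, 13 of the 30 targets had a larger and 4 a smaller effect with B87+DMKG, where 48.6% of all rows had an interaction, at a median of 0.27 against -0.01 over all rows. PMAIP1 rose by 2.56 ± 0.15 with Rita alone and by 4.32 ± 0.15 when Rita was added to the combination. SESN2 rose by 1.09 ± 0.20 and 3.77 ± 0.20. In total 24 rose and 1 fell when Rita was added (67.3% of all rows changed), and against Control 18 were higher and 3 lower with that triple treatment (60.1%). CDKN1A had a mean of 4414 ± 210 in Control, 33195 ± 864 with B87+DMKG+Rita and 46296 ± 3692 with B87+DMKG+Nutlin-3 (SD, n = 4 each).

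**Figure D4:**
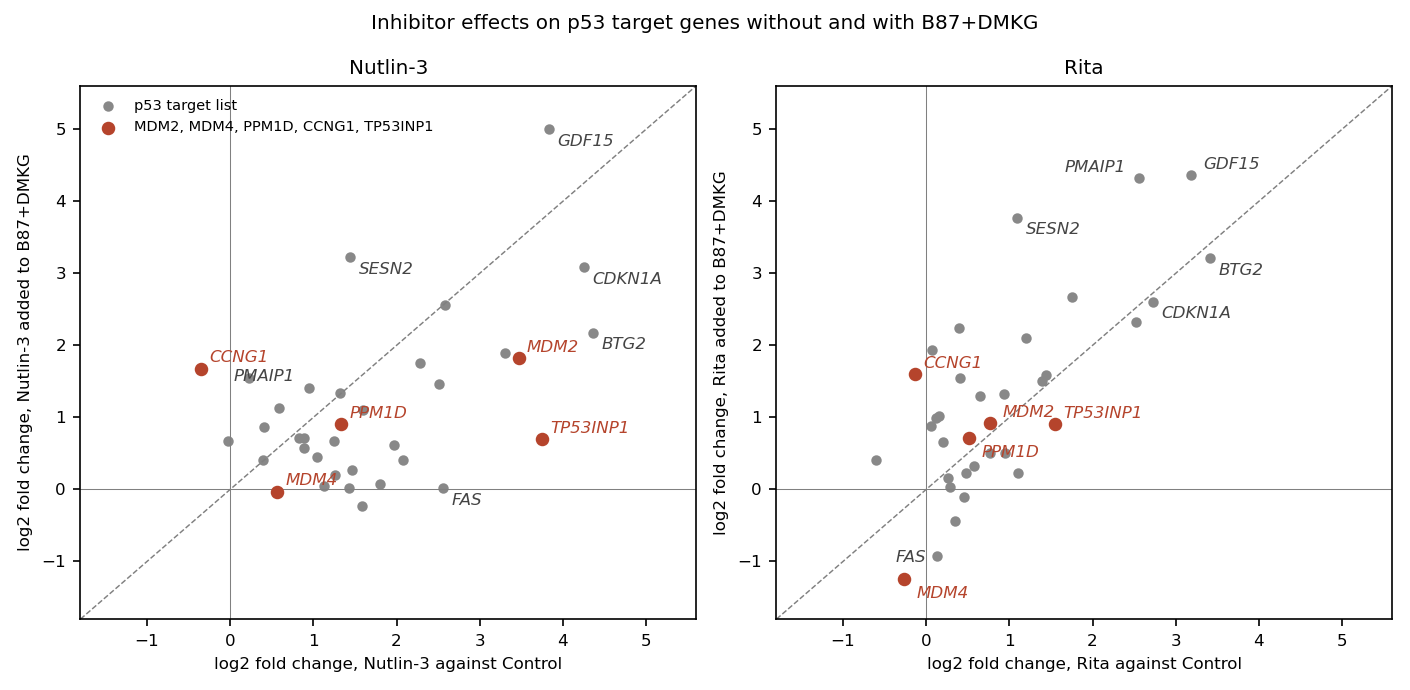
Log2 fold change of each inhibitor against Control (horizontal axis) and when added to B87+DMKG (vertical axis) for 30 p53 targets (grey) and the 5 loop genes (red), Nutlin-3 left and Rita right. The dashed line marks equal effects. TP53INP1 (3.75 and 0.70) and FAS (2.56 and 0.02) lie far below it for Nutlin-3, and CCNG1 lies above it in both panels.

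Across all 31 libraries the 5 genes formed no common pattern. Pearson's r of log2 values was 0.917 for MDM2 with PPM1D, 0.895 for MDM2 with TP53INP1 and 0.888 for PPM1D with TP53INP1. It was 0.141 for MDM2 with MDM4 and 0.195 for MDM2 with CCNG1. The libraries share their groups, so these values describe the group differences. Among 11148 rows that name 1 gene and have a mean of at least 50, the rows most like MDM2 were PPM1D (0.917), INPP5D (0.911), OSBP (0.910), DNAJB9 (0.909) and BHLHA15 (0.900). For MDM4 they were UNK (0.913), GATAD2B (0.911), RNF169 (0.898), ZNF565 (0.892) and LIG3 (0.887). For PPM1D they were TIGAR (0.952), NUPR1 (0.925), MDM2 (0.917), GARS (0.898) and CARS (0.892). For CCNG1 they were NDFIP1 (0.940), PCCB (0.934), PRDX3 (0.933), NAP1L1 (0.933) and MDH1 (0.932). For TP53INP1 they were EDA2R (0.921), MDM2 (0.895), PPM1D (0.888), GRHL3 (0.875) and BHLHA15 (0.864). MDM2 and PPM1D stand in each other's lists, and both stand in the list of TP53INP1. TIGAR and EDA2R, which lead the lists of PPM1D and TP53INP1, are in the p53 target list.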

How the data were processed

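Poly(A) RNA from 31 samples of H460 cells was sequenced from stranded libraries, per the labels' protocols. The deposited values are signal: read counts per gene that the authors divided by a size factor per library. FastQC, Picard, SAMtools, STAR 2.4.0 and DESeq2 stand in the submitters' processing notes. Those notes name a mouse build, whereas the file header names hg19 and the rows are human genes, and hg19 coordinates are given. The counter, and whether it used strand, is not given in the sources used here. In all, the table held 74834 rows, of which 51656 had no gene symbol and 1043 combined several. Whole reads were recovered from the step of each library. This was judged on the lower nonzero values, 14956 to 17662 per library. Of them 100% were whole within 0.1 of a read, and higher values were not judged. Of the values judged 55.8 to 59.2% were even numbers, so counting error computed from the reads may be too small.

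Groups came from the labels. limma 3.58.1 (R 4.3.3) with a mean-variance trend was fitted to log2(value + 1) over all 31 samples and 16259 rows with a mean of at least 10, without a replicate block. p-values were adjusted by Benjamini-Hochberg over all rows of a comparison and called under 0.05. The fit was tested on simulated data. Alternatives were pseudocounts of 0.5 and 5, a minimum mean of 50 or none, scaling to equal library totals, quantile normalization, a fit of the compared groups alone, a replicate block, tests of the whole reads with edgeR 4.0.16 or DESeq2 1.42.0, and each library left out. DMKG libraries 1 and 2, or 3 and 4, were also left out, a choice made after seeing the data. Named were the 5 genes, CDKN1A, USP7 and BBC3, up to 4 called genes with the largest change per list and comparison, and the 5 rows most correlated with each gene. FAS, POLH, PMAIP1, SESN2, GDF15 and others are given in further comparisons than the one that named them, and TP53INP2, PPM1A, PPM1F, LRRN2 and NUDCD2 were chosen as relatives or neighbours. Of the genes this rule names, 1 is not reported here. The genes and lists were chosen with earlier results of these data known. Comparisons that use the same control samples are not independent.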

Additional observations from a re-analysis of the deposited data

Results flagged for a closer look

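In 3 of 35 gene and group sets of 4 libraries, 1 library stood far from the others, and chance sets apart about 1 in 20 such sets. PPM1D in B87+DMKG+Rita was 831.4 in replicate 4, below 934 to 951 in the others. CCNG1 in B87+DMKG was 967.9 in replicate 2, below 1202 to 1233. CCNG1 in Rita was 1884.7 in replicate 4, below 3329 to 3676.

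An effect differed between settings, by the interaction term itself in limma, in 11 of 15 tests on the 5 genes. Over all rows 56.9% were called for Nutlin-3 by B87+DMKG, 48.6% for Rita by B87+DMKG and 48.8% for the combination beyond the sum. The Nutlin-3 effect with minus without B87+DMKG was -1.64 for MDM2, -0.59 for MDM4, -0.43 for PPM1D, 2.03 for CCNG1 and -3.05 for TP53INP1. The Rita effect with minus without B87+DMKG was -0.97 for MDM4, 1.73 for CCNG1 and -0.63 for TP53INP1. The combination of B87 with DMKG minus the sum of its parts was -1.13 for MDM2, -0.35 for PPM1D and -2.15 for CCNG1.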

How the results depend on the processing

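Over 80 results (5 genes in 16 comparisons) and 1560 values under alternatives, 1523 stayed on their side of the threshold, 20 lost the call with their direction kept, 16 gained one and 1 called value turned direction. Of 26 results that had not passed, 9 turned direction in 16 values without passing. Of 54 called results 48 kept the call in every alternative run. MDM2 against Control in DMKG was 0.16 with the same total in every library and 0.198 without DMKG libraries 1 and 2, both past the threshold no longer. MDM2 in B87+DMKG+Rita against Control was 0.0896 with quantile normalization and -0.0147 with the same total, where its direction turned. Leaving out 1 library gave 0.208 to 0.279. The cause was not tested. Rows called for B87 against Control numbered 7 by limma, 14 with only these groups in the fit, 30 by DESeq2 and 2 to 7 without 1 library. With the same total in every library, the share of called rows that rose was 30.5% for Nutlin-3 (47.2% before), 30.9% for Rita (49.4%), 31.6% for DMKG (47.3%), 31.9% and 32.7% for Nutlin-3 and Rita added to B87+DMKG (45.1% and 49.2%), 33.8% and 27.9% for these triple treatments against Control (48.8% and 48.9%), 20.2% for B87+DMKG+Rita against Rita (39.9%), 60% for B87 (71.4%) and 61.3% beyond the sum of B87 and DMKG (50.5%). The shares for B87 rest on few called rows, 7 before, of which 5 rose. Quantile normalization gave a share of 56% for Nutlin-3 added to B87+DMKG.

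The replicate numbers did not pair the samples: deviations of same-numbered libraries correlated at -0.207 to 0.187 over 105 pairs, 6 of them over 0.1. A replicate block changed 1 of 80 calls, CCNG1 in Nutlin-3 against Control (-0.395).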

Other observations

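Immediate early genes, transcription factors and phosphatases that growth and stress signals switch on within minutes, followed another course than the loop genes. Of 11 tested, 8 rose and 1 fell with B87+DMKG, where 61% of all rows changed, at a median of 2.69 against 0.00 over all rows. EGR1 had a mean of 374 ± 114.7 in Control and 33495 ± 3626 with B87+DMKG (SD, n = 4 each), a rise of 6.54 ± 0.20 (limma adjusted p = 4.01e-21). It fell from there by 0.81 ± 0.20 when Nutlin-3 was added and by 0.94 ± 0.20 when Rita was. Rita alone raised 10 of the 11 and lowered 0, where 52.1% of all rows changed, at a median of 2.71. DMKG alone raised 9 and lowered 0, where 41.4% of all rows changed. It raised 10 without DMKG libraries 1 and 2 and 8 without libraries 3 and 4. Nutlin-3 alone raised 3 and lowered 3, where 39.1% of all rows changed. With B87+DMKG+Rita all 11 were above Control, where 60.1% of all rows differed, at a median of 4.22 against 0.01 over all rows.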
